A study of Mus musculus with 46 samples.

Results

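The response of old mouse liver 0.5 h after partial hepatectomy (PH) was described from 6 of the 46 arrays of a study of the first hours of liver regeneration in young and old animals. The members were the 3 arrays titled as PH at 0.5 h in old mice and their controls, the 3 arrays titled as 0 h in old mice, and all 12422 probe sets that are not array controls were compared. PH is the surgical removal of most of the liver, here 70% of its mass, after which the remnant grows back. All mice were males of the CB6F1 hybrid strain, and the old mice were 25 to 27 months old. Operated mice received avertin by injection and then inhaled isoflurane. The old controls carry the treatment label none, and the labels do not say whether they were anaesthetised. Also used were the 2 arrays of old mice 0.5 h after a sham operation, the 3 arrays of old mice 1 h after PH, and the 3 arrays at 0 h and 3 arrays 0.5 h after PH of young mice, 5 to 6 months old. The 2 ages were obtained from different suppliers, so age and supplier cannot be told apart. Arrays of a group are replicates by their labels, but whether each stands for a separate mouse is not given, so the spread behind every p-value may be technical. Values are log2 intensities made by RMA, a method that puts all arrays on 1 distribution of probe intensities, and a difference of 1 is a doubling. The labelled tissue was checked against 9 measured hepatocyte markers, whose mean level was between 12.15 and 12.43 in each of the 6 arrays. Albumin (Alb), the main plasma protein made by hepatocytes, was at 13.96, 13.90 and 13.77 at 0 h and at 13.68, 13.78 and 13.62 after PH.

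Hepatocytes are normally quiescent and enter the cell cycle after hepatectomy. The first measurable step is the transcription, within minutes and without new protein synthesis, of immediate early genes, many of which encode the AP-1 proteins (Fos and Jun families) and other transcription factors, or phosphatases and RNA-binding proteins that end the signal. Cytokines such as IL-6 act on hepatocytes in parallel, through STAT3, and induce acute phase genes, whose products are secreted into plasma during injury and inflammation. Interferons act through other STAT proteins and induce a separate set of genes, among them guanosine triphosphatases that attack intracellular pathogens.

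The 3 arrays after PH did not show 1 common pattern. Some immediate early genes, Fos and Egr1 among them, were far higher in replicate 3 than in replicates 1 and 2. Acute phase genes such as Saa2 and Lcn2 were far higher in replicate 1 than in replicates 2 and 3. In replicate 1, 8 of 12 measured neutrophil markers were more than 1 above the control mean, against 1.03% of all probe sets. Replicate 2 had neither group at such levels. Other genes lay on the same side of the controls in all 3 arrays, including Jun above them and Hnrnpu, Srsf5 and Phlda1 below them. No probe set passed the test of the 3 PH arrays against the 3 old 0 h arrays (limma, Benjamini-Hochberg adjusted p under 0.05 over all 12422 probe sets), which is 0% of those tested, and the smallest adjusted p was 0.122. At an unadjusted p under 0.05 there were 1112 probe sets, or 8.95%, of which 861 were higher (6.93% of all tested) and 251 lower (2.02%) after PH. All 3 PH arrays lay above all 3 control arrays for 1175 probe sets (9.46%) and below them for 363 (2.92%). The median difference over all probe sets was 0.04. The other settings run on these 6 arrays called at most 1 probe set, Hnrnpu or Phlda1, as long as all 6 were kept.

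Which arrays were kept changed the calls. Without PH replicate 3 there were 18 higher and 5 lower probe sets. Among the higher ones were Ly6e, Myd88, Mpeg1, Crp and Ctsc, and the lower ones were Hnrnpu, Srsf5, Cenpv, Pex5 and Zfp276. Without PH replicate 2 there were 4 higher, Jun, Slc25a25, Igfbp1 and 1 of the 2 probe sets of Junb, not the one used for that gene elsewhere, and 5 lower, of which the named ones were Uox, Rbp4, Cyp2d10 and Hnrnpu. Without PH replicate 1 there were 0, and without 0 h replicates 1, 2 and 3 there were 3 (Slc25a25, Errfi1 and Otulinl, all higher), 0, and 2 (Hnrnpu and Srsf5, both lower). Of these genes, those outside the rule for named genes were chosen after their values were seen.

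Each PH array was next set against the mean of the 3 old 0 h arrays, with no test. Replicate 1 had 128 probe sets more than 1 above that mean (1.03%) and 35 more than 1 below it (0.282%). Replicate 2 had 26 above (0.209%) and 20 below (0.161%), and replicate 3 had 28 above (0.225%) and 14 below (0.113%). As background, the 0 h arrays were each set against the mean of the other 2, which gave 58 above and 13 below for replicate 1, 6 and 21 for replicate 2, and 6 and 11 for replicate 3. Against that same pair of controls, 0 h replicates 2 and 3, PH replicates 2 and 3 had 45 and 61 probe sets over 1 in either direction and 0 h replicate 1 had 71. For this pair the order was the other way round at a threshold of 0.5, with 587 and 446 in PH replicates 2 and 3 and 343 in 0 h replicate 1. It was also the other way round at a threshold of 1 for the other pairs of controls. Against 0 h replicates 1 and 3, PH replicates 2 and 3 had 49 each and 0 h replicate 2 had 27. Against 0 h replicates 1 and 2, PH replicates 2 and 3 had 68 and 47, and 0 h replicate 3 had 17. After each array was centred on its median, PH replicate 2 had 20 above and 26 below. Of the probe sets more than 1 above the mean in any PH array, 154 were so in 1 array, 14 in 2 and 0 in all 3. Below the mean, the counts were 52 in 1 array, 7 in 2 and 1 in all 3, the last being Phlda1.

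**Figure D1:**
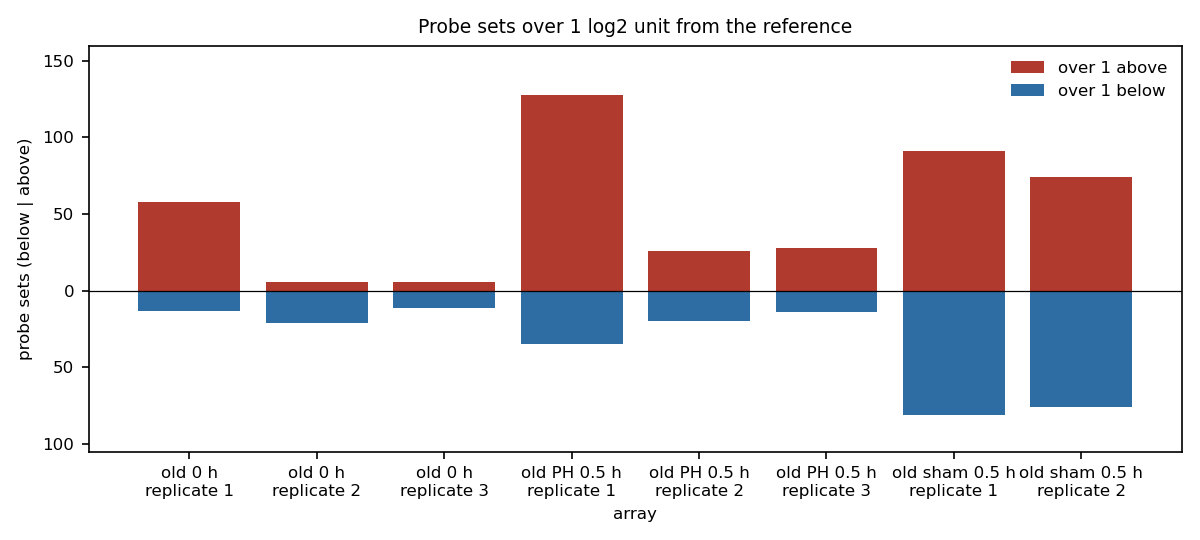
Bars give the number of probe sets more than 1 log2 unit above (upward) or below (downward) the reference in each old array; the reference is the mean of the other 2 arrays for a 0 h array and the mean of the 3 old 0 h arrays for the rest. PH replicate 1 has 128 above and 35 below, against 26 and 20 in replicate 2 and 28 and 14 in replicate 3.

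The arrays also differed in technical values. Pearson correlations among the 6 arrays over all probe sets ran from 0.982 to 0.994. The lowest was between PH replicates 1 and 2. The mean of the 9 bacterial and phage spike-in probe sets, control transcripts added in fixed amounts to each hybridisation, was 9.70, 9.74 and 10.61 at 0 h and 9.92, 10.05 and 7.68 after PH, so PH replicate 3 was the low one. The gap between the 3' and 5' control probe sets for actin, which widens when RNA is degraded, was 0.76, 1.03 and 1.05 at 0 h and 1.04, 2.06 and 0.89 after PH, so PH replicate 2 was the high one. The same gap for GAPDH was 0.68 in PH replicate 2 and between 0.20 and 0.37 in the other 5 arrays. The exact two-sided permutation p of PH against 0 h was 0.60 for the spike-ins and 0.50 for the actin gap, where 3 against 3 arrays allow no p below 0.10. A fit with the spike-in mean as a covariate was run, and its values are given below where it moved a printed difference by more than 1.5 times. The part of the actin and GAPDH gaps was not tested. Beta-actin mRNA also gave different signals between arrays, and its probe sets disagreed on whether PH replicate 3 was low or high. The brighter of its probe sets (Actb) was at 9.09, 9.62 and 9.91 at 0 h and at 9.38, 7.87 and 6.51 after PH, a difference of -1.62 ± 0.51 with an adjusted p of 0.325, or -0.91 with the spike-in covariate, while the 3' actin control probe set was at 12.43, 12.14 and 12.89 after PH against 12.54, 12.61 and 12.63 at 0 h.

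Immediate early genes are described first. Fos, the AP-1 partner of Jun, was at 6.69, 4.83 and 4.93 in the 3 arrays at 0 h and at 4.48, 4.40 and 10.75 after PH. Replicate 3 was therefore far above every control, while replicates 1 and 2 were below all of them. The fitted difference was 1.06 ± 0.92 (SE) with an adjusted p of 0.775. It was 0.14 with the spike-in covariate, 2.21 with array weights and -1.04 without PH replicate 3, the array with the low spike-in mean. A second Fos probe set, of low signal, stayed between 4.80 and 5.23 in all 6 arrays. Ier2, a nuclear protein induced by growth factors, was at 8.63, 7.79 and 7.33 at 0 h and at 7.34, 6.77 and 10.59 after PH. Atf3, a stress-induced member of the same protein class as AP-1, was at 6.28, 6.13 and 6.08 at 0 h and at 6.78, 6.22 and 9.76 after PH. Replicate 3 was the high one for both genes. Egr1, a zinc finger activator, was at 9.65, 7.68 and 7.18 at 0 h and at 6.95, 6.62 and 10.24 after PH. Here 0 h replicate 1 was nearly as high as PH replicate 3, and the fitted difference of -0.23 ± 0.57 had an adjusted p of 0.942. It was -0.75 with the spike-in covariate and 0.36 with array weights, and from -1.39 to 0.51 when single arrays were left out. For Ier2 the difference of 0.32 ± 0.51 became -0.27 with the covariate and 0.85 with array weights.

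Several genes whose products end the early signal were also highest in replicate 3. Dusp1, a phosphatase that switches off MAP kinases, was at 8.52, 8.78 and 8.11 at 0 h and at 8.98, 8.30 and 10.73 after PH. Zfp36, which binds and destabilises short-lived mRNAs, was at 9.18, 9.15 and 8.80 at 0 h and at 9.34, 8.69 and 11.21 after PH. Btg2, an antiproliferative protein, was at 8.93, 8.44 and 8.55 at 0 h and at 9.07, 8.71 and 10.51 after PH. In each of these genes replicate 3 was more than 1 above every other array of the 6, and replicates 1 and 2 lay within 0.51 of the mean of the controls. Nr4a1, an orphan nuclear receptor, is one of the early transcription factors and is given beside them. It was at 6.23, 6.17 and 5.76 at 0 h and at 6.05, 5.93 and 7.93 after PH. The adjusted p-values of these 4 genes ran from 0.498 to 0.67. With the spike-in covariate the difference went from 0.70 to 0.36 for Zfp36, from 0.79 to 0.52 for Btg2 and from 0.59 to 0.14 for Nr4a1. Myc showed no such step: it was at 4.32, 3.79 and 4.58 at 0 h and at 4.21, 3.85 and 4.30 after PH.

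Over the list of AP-1 and early transcription factors, of which 28 of 32 symbols were measured, 6 members were more than 1 above the control mean in replicate 3. In replicates 1 and 2, 0 were above it so far and 2 members each were more than 1 below it. Of all probe sets, 1.03%, 0.209% and 0.225% were more than 1 above it in replicates 1, 2 and 3. More than 1 below it were 0.282% and 0.161% in replicates 1 and 2. The list's median difference was 0.30 in replicate 3, against 0.05 over all probe sets, and 0.05 and -0.03 in replicates 1 and 2. In the list of other immediate early genes, 24 of 31 measured, the counts above were 1, 0 and 5 in replicates 1, 2 and 3, and the medians 0.19, -0.24 and 0.38. No member of either list passed the test. At an unadjusted p under 0.05, 5 of the 28 were higher and 0 lower, and 5 of the 24 were higher and 1 lower, where 6.93% of all probe sets were higher and 2.02% lower. The control array 0 h replicate 1 by itself had 4 members of the first list and 3 of the second more than 1 above the mean of the other 2 controls. Early genes did not all follow replicate 3. Rgs2, a regulator of G protein signalling, was at 4.08, 3.91 and 3.25 at 0 h and at 4.34, 4.30 and 4.36 after PH, and Rhob, a small GTPase, was highest in replicate 1, at 9.02 against 8.98 in replicate 3. Rgs2 and Rhob were chosen after their values were seen.

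Promoters are shown for 3 of the genes that set replicate 3 apart. Each window runs 250 bases before to 50 bases after the RefSeq start of the gene, read 5′ to 3′ on the gene's strand, in build GRCm38.p6. Fos lies at chr12:85473640-85473939 on the plus strand, Zfp36 at chr7:28379179-28379478 on the minus strand and Dusp1 at chr17:26508423-26508722 on the minus strand. Capitals mark matches, on either strand, to 6 motifs: the TATA box (TATAAA), the cAMP response element (TGACGTCA), the CArG box bound by serum response factor, the STAT site (TTCNNNGAA), the core of the metal response element (TGCACNC or TGCGCNC) and the interferon-stimulated response element.
Fos: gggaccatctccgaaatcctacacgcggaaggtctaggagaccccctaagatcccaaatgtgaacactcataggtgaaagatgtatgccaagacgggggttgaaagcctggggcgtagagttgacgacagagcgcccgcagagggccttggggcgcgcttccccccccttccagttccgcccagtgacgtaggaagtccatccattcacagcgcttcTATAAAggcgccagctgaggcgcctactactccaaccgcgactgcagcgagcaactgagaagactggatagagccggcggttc
Zfp36: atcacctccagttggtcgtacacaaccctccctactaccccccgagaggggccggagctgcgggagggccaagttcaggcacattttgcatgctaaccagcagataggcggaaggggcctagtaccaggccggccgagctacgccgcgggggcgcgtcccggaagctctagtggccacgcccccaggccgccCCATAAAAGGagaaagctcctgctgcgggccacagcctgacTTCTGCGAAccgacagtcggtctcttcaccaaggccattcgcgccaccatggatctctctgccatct
Dusp1: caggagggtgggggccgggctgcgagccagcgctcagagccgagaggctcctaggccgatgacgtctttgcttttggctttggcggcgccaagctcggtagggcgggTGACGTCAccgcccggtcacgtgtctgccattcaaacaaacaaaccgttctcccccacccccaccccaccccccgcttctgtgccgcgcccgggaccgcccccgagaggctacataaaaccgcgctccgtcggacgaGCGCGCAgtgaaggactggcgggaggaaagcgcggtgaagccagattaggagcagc
Fos held a TATA box from base -33, counted from the start of the gene. Zfp36 held a CArG box from base -58 and a STAT site from base -17. Dusp1 held a cAMP response element from base -143 and a metal response element core from base -6, and Btg2 held a cAMP response element from base -166. No matches overlapped in the printed windows. Of all 32851 promoter windows in the RefSeq table, 13.6% held the TATA box, 1.79% the cAMP response element, 1.63% the CArG box and 8.30% the STAT site. A match is a description of the letters and not a tested site. Of 16 genes searched, 15 had a window, and Ier2 had no entry.

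Replicate 1 was set apart by acute phase genes. Lcn2, an iron-carrier-binding protein secreted by hepatocytes and neutrophils, was at 6.60, 6.11 and 5.60 at 0 h and at 12.55, 6.10 and 5.79 after PH. Saa2, a serum amyloid A protein, was at 7.89, 10.60 and 8.37 at 0 h and at 14.13, 9.01 and 8.05 after PH. Orm2, an orosomucoid, was at 8.60, 9.85 and 8.33 at 0 h and at 13.43, 8.05 and 8.49 after PH. In all 3 genes replicate 1 was far above the other 5 arrays, and replicates 2 and 3 lay within or below the range of the controls. The metallothioneins, small proteins that bind zinc and copper, behaved alike in replicate 1. Mt1 was at 9.28, 7.25 and 6.87 at 0 h and at 13.10, 7.25 and 8.24 after PH. Mt2 was at 8.68, 7.84 and 7.26 at 0 h and at 13.25, 8.26 and 8.23 after PH. The fitted differences of these 5 genes ran from 1.07 (Orm2) to 2.04 (Lcn2), with adjusted p-values from 0.455 to 0.796. With array weights they were 1.13 for Lcn2, 0.13 for Saa2, 0.15 for Orm2 and 1.32 for Mt2. Without replicate 1 the differences of Lcn2, Saa2, Orm2 and Mt1 became -0.16, -0.42, -0.65 and -0.05, and that of Mt2 became 0.32.

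Over the acute phase list, 23 of 27 symbols measured, 15 members were more than 1 above the control mean in replicate 1 and 0 in replicates 2 and 3. The shares of all probe sets were 1.03%, 0.209% and 0.225% in replicates 1, 2 and 3. The list's medians in the 3 arrays were 1.36, -0.09 and -0.26, against 0.01, 0.07 and 0.05 over all probe sets. Members with large basal levels took part, chosen here after their values were seen: Apcs, the serum amyloid P component, was at 12.68, 10.45 and 10.45 after PH, and Lbp, the lipopolysaccharide-binding protein, at 11.14, 9.29 and 8.86. Hamp, the iron hormone hepcidin, stood apart from the list in replicate 1, at 10.61 against 10.79, 11.26 and 11.12 at 0 h. None of the 23 passed the test, and 4 were higher at an unadjusted p under 0.05 (6.93% of all probe sets). All 3 PH arrays lay above the controls for 0 members, against 9.46% of all probe sets.

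Members of cytokine signalling upstream of the acute phase differed in which array was highest. Il1r1, the interleukin-1 receptor, was at 7.23, 6.71 and 6.47 at 0 h and at 9.64, 7.08 and 6.84 after PH. Osmr, the oncostatin M receptor of the IL-6 family, was at 4.77, 4.46 and 4.11 at 0 h, and after PH it stood 2.56 above their mean in replicate 1 and was at 4.62 and 4.76 in replicates 2 and 3. Cebpd, a transcription factor of acute phase genes, was at 7.84, 6.83 and 6.66 at 0 h and at 9.52, 6.29 and 7.30 after PH. Socs3, the feedback inhibitor of STAT3 signalling, was at 7.15, 6.35 and 7.07 at 0 h and at 8.47, 6.49 and 6.74 after PH. None of these 4 passed, and each was highest in replicate 1. Lifr, a receptor of the IL-6 family, was lowest there, at 9.49 against 10.86 and 10.49 in replicates 2 and 3, and Socs2, a feedback inhibitor, was highest in replicate 2, at 7.62 against 7.26 and 6.49. Lifr was chosen after its values were seen. In the IL-6 and STAT list (19 of 22 measured) the counts more than 1 above the control mean were 3, 1 and 0 in replicates 1, 2 and 3. The shares of all probe sets were 1.03%, 0.209% and 0.225%.

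Many neutrophil markers were high together with the acute phase genes in replicate 1. Of 12 measured markers, 8 were more than 1 above the control mean in replicate 1, 0 in replicate 2 and 2 in replicate 3. The shares of all probe sets were 1.03%, 0.209% and 0.225%. Lcn2 is in both lists. S100a8, a calcium-binding protein abundant in neutrophils, was at 5.15, 4.88 and 4.87 at 0 h and at 8.47, 4.91 and 6.59 after PH. Prtn3, a granule protease, was at 6.00, 5.52 and 5.59 at 0 h and at 8.63, 5.86 and 5.86 after PH. Both were highest in replicate 1, and S100a8 also lay above the controls in replicate 3. The receptor markers Csf3r and Cxcr2, named after their values were seen, did not stand out in replicate 1, where they were at 8.98 and 4.39 against 9.13, 8.98 and 9.04 and 4.48, 4.37 and 4.61 at 0 h. The mean level of the 12 markers was 5.72 to 5.98 at 0 h and 7.81, 5.93 and 6.11 after PH. The Kupffer cell and macrophage markers, 12 of 14 measured, had mean levels of 6.70 to 7.27 at 0 h and 7.84, 7.36 and 7.36 after PH, so all 3 PH arrays lay above all controls. The exact two-sided permutation p was 0.10, the smallest that 3 against 3 arrays can give, and 0.45 after adjustment over the 18 array values tested. The same p-values were obtained for erythroid cell markers (difference -0.30) and skeletal muscle markers (0.13), where that of the macrophage markers was 0.51. Cd5l, made by macrophages, was at 7.39, 7.53 and 6.51 at 0 h and at 8.54, 8.37 and 7.89 after PH. Cd14, part of the lipopolysaccharide receptor, was at 8.28, 8.30 and 8.06 at 0 h and at 10.52, 8.10 and 8.34 after PH. The first was higher in all 3 PH arrays and the second in replicate 1. In whole liver, more cells of a type and more RNA per cell cannot be told apart, and the part of such cells in the acute phase values was not tested.

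Some hepatocyte enzymes were low in the same array. Hsd3b5, a steroid dehydrogenase of male liver, was at 10.14, 10.96 and 10.57 at 0 h and at 7.85, 11.20 and 10.81 after PH. Gsta2, a glutathione transferase, was at 9.28, 9.70 and 9.54 at 0 h and at 7.88, 9.82 and 10.02 after PH. Cyp8b1, the sterol hydroxylase that sets the cholic acid share of bile acids, was at 9.92, 10.60 and 10.47 at 0 h and at 8.92, 10.66 and 10.78 after PH. Replicate 1 was the lowest of the 6 arrays in all 3 genes. Over the cytochrome P450 and xenobiotic list (24 of 28 measured) the medians were -0.38, 0.10 and 0.23 in replicates 1, 2 and 3. In replicate 1, 3 members were more than 1 below the control mean, where 0.282% of all probe sets were, and 0 were in replicates 2 and 3. The bile acid and cholesterol list (16 of 25 measured), which holds Cyp8b1, went both ways in replicate 1. There 2 members were more than 1 above the control mean (1.03% of all probe sets) and 1 more than 1 below it. The mean level of the 9 hepatocyte markers was 12.25 in replicate 1, 12.37 in replicate 2 and 12.15 in replicate 3, so replicate 1 was not the lowest there.

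The promoter of Mt2, at chr8:94172368-94172667 on the plus strand, is shown because metallothionein genes carry repeated metal response elements, marked in capitals.
Mt2: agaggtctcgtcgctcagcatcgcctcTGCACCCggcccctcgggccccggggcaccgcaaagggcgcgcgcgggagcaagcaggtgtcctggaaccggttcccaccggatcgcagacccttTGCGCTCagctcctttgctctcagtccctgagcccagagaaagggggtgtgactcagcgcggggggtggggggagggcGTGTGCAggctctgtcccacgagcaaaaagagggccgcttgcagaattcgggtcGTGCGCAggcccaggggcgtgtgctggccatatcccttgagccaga
It held 4 matches, from bases -223, -128, -50 and 5, and the Mt1 window held 3. Of all promoter windows, 25.7% held at least 1 match, 1.97% at least 3 and 0.517% at least 4. The windows of Saa2 and Lcn2 held no match to any of the 6 motifs, and Orm2 held a TATA box.

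**Figure D2:**
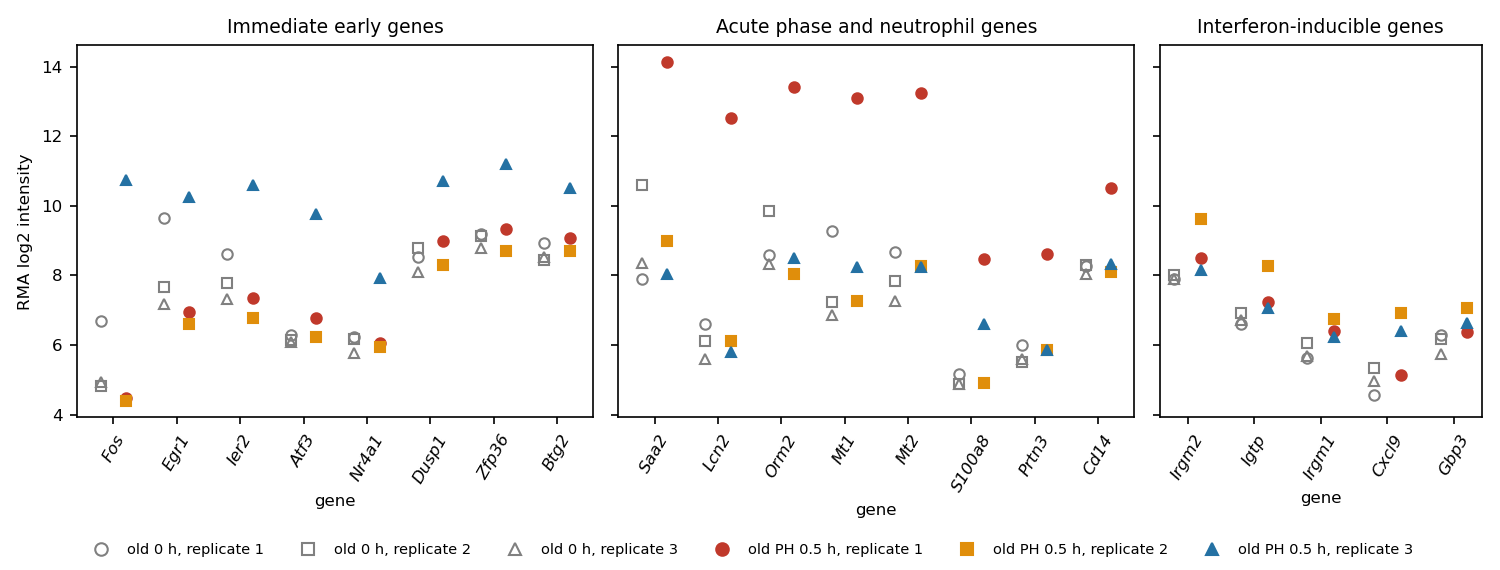
RMA log2 intensity (vertical axis) of single genes in each of the 3 old 0 h arrays (open grey) and the 3 old PH 0.5 h arrays (filled), with 1 symbol per replicate number. Fos is at 10.75 in PH replicate 3 alone, Lcn2 at 12.55 in PH replicate 1 alone, and Irgm2 is highest, at 9.62, in PH replicate 2.

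The genes that stood highest in replicate 2 against the other 2 PH arrays included Irgm2, and 3 other genes known to be induced by interferon are given beside it. Irgm2, an immunity-related GTPase, was at 7.90, 8.01 and 7.89 at 0 h and at 8.52, 9.62 and 8.16 after PH. Cxcl9, a chemokine induced by interferon gamma, was at 4.56, 5.35 and 4.97 at 0 h and at 5.14, 6.92 and 6.40 after PH. Both were highest in replicate 2. Igtp, another such GTPase, was at 6.60, 6.92 and 6.72 at 0 h and at 7.22, 8.29 and 7.08 after PH. Gbp3, a guanylate-binding protein, was at 6.27, 6.16 and 5.75 at 0 h and at 6.38, 7.08 and 6.62 after PH. In Irgm2, Igtp and Gbp3 all 3 PH arrays were above all 3 controls, with replicate 2 the farthest, and in Cxcl9 replicate 1 was not. Differences were 0.83 ± 0.28 for Irgm2 (adjusted p 0.353), 0.78 ± 0.31 for Igtp (0.454) and 1.20 ± 0.41 for Cxcl9 (0.368). Igtp and Gbp3 were chosen after their values were seen, and no list of interferon genes was used. Other genes that interferon induces did not follow. Irf1, a transcription factor, was highest in replicate 3, at 8.40 against 7.64 and 8.01, and Cxcl10, a chemokine, was at 3.81 in replicate 2, below 1 control at 4.10. Irf1 and Cxcl10 were also chosen after their values were seen. Other genes that were high in replicate 2 against the other 2 PH arrays were Hsd3b5, Foxa1, a pioneer transcription factor of hepatocytes, and Mcm10, a DNA replication factor. For Hsd3b5 the array that stood apart was the low replicate 1, as given above, and replicate 3 lay within the range of the controls. Mcm10 was at 7.27, 7.38 and 7.23 at 0 h and at 6.50, 8.34 and 7.47 after PH. Replicate 2 also held the lowest PH value of Igfbp1, described below.

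Igtp and Irgm2 both lie on chromosome 11, at chr11:58199306-58199605 and chr11:58214727-58215026, both on the plus strand, and their promoter windows are printed to show how alike they are.
Igtp: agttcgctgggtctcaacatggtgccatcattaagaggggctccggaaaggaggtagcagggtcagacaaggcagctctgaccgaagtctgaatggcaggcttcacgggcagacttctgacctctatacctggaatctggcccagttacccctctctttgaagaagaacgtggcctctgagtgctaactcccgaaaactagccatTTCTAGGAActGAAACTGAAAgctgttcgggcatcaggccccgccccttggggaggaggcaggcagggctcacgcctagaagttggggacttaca
Irgm2: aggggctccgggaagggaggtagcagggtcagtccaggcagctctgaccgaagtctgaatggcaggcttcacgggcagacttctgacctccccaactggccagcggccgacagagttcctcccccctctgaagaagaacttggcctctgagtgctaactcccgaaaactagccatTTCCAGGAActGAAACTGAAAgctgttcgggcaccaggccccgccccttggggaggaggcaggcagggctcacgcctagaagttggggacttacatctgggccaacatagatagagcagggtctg
Each window held a STAT site and, 2 bases behind it, an interferon-stimulated response element, the former from base -45 in Igtp and -75 in Irgm2. The longest identical stretch of the 2 windows was 61 bases. Of all promoter windows, 8.30% held the STAT site and 3.44% the interferon-stimulated response element.

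Several genes lay on the same side of the controls in all 3 PH arrays, although none passed. Jun, the AP-1 subunit that can act without Fos, was at 6.57, 6.55 and 6.64 at 0 h and at 7.45, 7.09 and 8.38 after PH. The 3 controls lay close together, every PH array was above them, and replicate 3 was the highest. The difference was 1.05 ± 0.22 with an adjusted p of 0.122, and between 0.68 and 1.33 when single arrays were left out. Jund, another AP-1 subunit, was at 11.07, 10.79 and 10.68 at 0 h and at 11.46, 11.12 and 11.79 after PH, a difference of 0.61 ± 0.16. Slc25a25, a mitochondrial ATP-Mg and phosphate carrier, was at 10.29, 9.22 and 9.40 at 0 h and at 10.75, 9.83 and 11.51 after PH, a difference of 1.06 ± 0.26 with an adjusted p of 0.149. In Slc25a25, PH replicate 2 lay within the range of the controls. Gjb2, the gap junction protein connexin 26, was at 10.90, 10.88 and 10.69 at 0 h and at 11.80, 11.37 and 10.98 after PH, with all PH arrays above the controls and an adjusted p of 0.325.

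Values for 2 chaperones of the endoplasmic reticulum, where secreted proteins fold, are given next. Dnajb9 was at 8.38, 7.99 and 8.06 at 0 h and at 9.31, 9.32 and 9.14 after PH, and its second probe set was at 7.26, 6.80 and 6.85 and at 8.91, 7.59 and 8.27. Both probe sets had all PH arrays above the controls. Pdia4, a disulfide isomerase, was at 9.06, 9.44 and 9.29 at 0 h and at 9.75, 10.03 and 9.84 after PH. Their differences were 1.11 ± 0.33 (adjusted p 0.289) and 0.61 ± 0.14 (0.149). Ficd, an enzyme that modifies the chaperone BiP, was at 6.52, 6.44 and 6.57 at 0 h and at 7.02, 7.08 and 6.86 after PH. Over the list of heat shock and other chaperones (25 of 26 measured) none passed, 6 were higher and 0 lower at an unadjusted p under 0.05, and 4 had all PH arrays above the controls, against 6.93%, 2.02% and 9.46% of all probe sets. Hspa1a, a heat shock protein chosen after its values were seen, differed the other way, by -0.57. Hspa1b, an inducible heat shock protein, varied widely within both groups and was at 10.37, 7.36 and 9.56 at 0 h and at 8.71, 9.52 and 7.99 after PH.

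Among the genes with the largest test statistic below the controls was Hnrnpu. Hnrnpu, a nuclear RNA- and scaffold-binding protein, was at 5.86, 5.77 and 5.43 at 0 h and at 4.58, 4.95 and 5.07 after PH, a difference of -0.82 ± 0.16 with an adjusted p of 0.122. Its second probe set, of lower signal, differed the other way, by 0.21. Srsf5, a splicing factor, was at 8.72, 8.97 and 8.32 at 0 h and at 7.92, 7.77 and 8.09 after PH, a difference of -0.74 ± 0.16 with an adjusted p of 0.122. All PH arrays were below all controls for both genes. Pabpn1, the nuclear poly(A)-binding protein, was at 8.19, 8.15 and 7.82 at 0 h and at 7.75, 7.46 and 7.71 after PH. Tnrc6a, a protein of microRNA silencing, was at 6.63, 6.62 and 6.56 at 0 h and at 6.15, 6.42 and 6.24 after PH. Both were lower in all PH arrays, by less than 0.5 on average.

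Larger differences below the controls were seen for Phlda1 and Hhex. Phlda1, a pleckstrin homology protein listed among immediate early genes, was at 9.47, 9.84 and 9.44 at 0 h and at 8.10, 8.19 and 7.91 after PH. The arrays of each group lay close together and the groups did not overlap. The difference was -1.51 ± 0.50 with an adjusted p of 0.338 in the fit of all 46 arrays, whose spread for this gene includes young 0 h arrays at 10.49, 9.89 and 7.75. It passed when the 6 arrays were fitted alone (adjusted p 0.0366). In that fit the adjusted p was 0.746 for Jun, Hnrnpu and Srsf5 and 0.753 for Slc25a25. Hhex, a homeobox factor of liver development, was at 8.90, 8.92 and 8.18 at 0 h and at 7.67, 8.19 and 7.07 after PH, a difference of -1.02 ± 0.31 with an adjusted p of 0.289. Replicate 2 lay just above the lowest control.

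**Figure D3:**
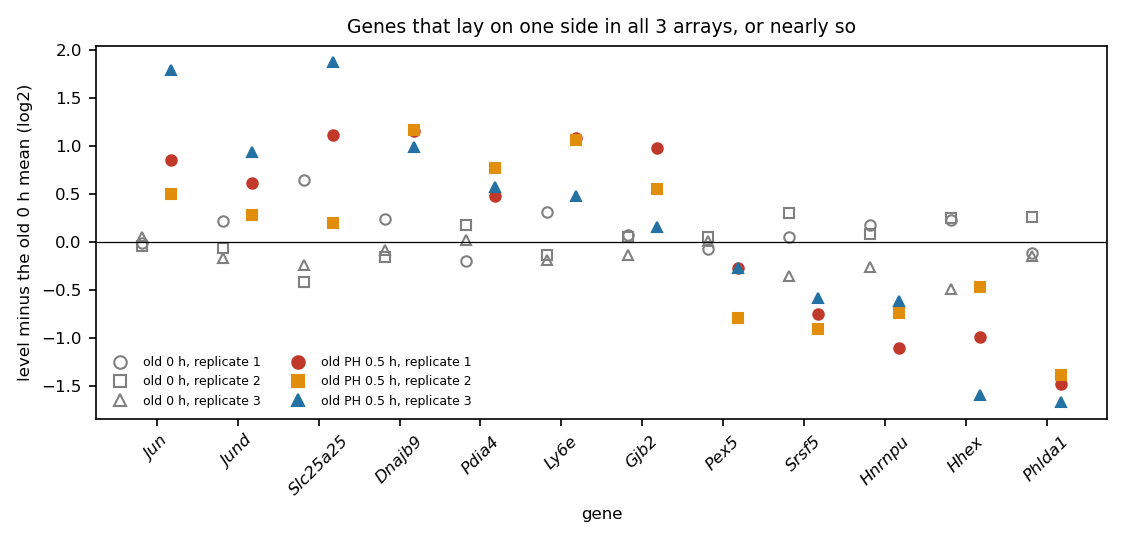
Level minus the old 0 h mean (log2, vertical axis) of 12 genes in the 3 old 0 h arrays (open grey) and the 3 old PH 0.5 h arrays (filled). Jun lies above all controls in each PH array, with a mean difference of 1.05, and Phlda1 lies below them, with a mean difference of -1.51.

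Genes of glucose output and the insulin-regulated binding protein Igfbp1 varied between arrays. Igfbp1, which binds insulin-like growth factors and is itself an early gene of the regenerating liver, was at 8.39, 8.06 and 6.16 at 0 h and at 9.44, 6.30 and 10.12 after PH. Replicates 1 and 3 were above all controls and replicate 2 was close to the lowest. The difference was 1.08 ± 0.57 with an adjusted p of 0.594, and 2.24 without PH replicate 2. G6pc, the last enzyme of glucose release, was at 11.59, 10.96 and 10.67 at 0 h and at 9.69, 10.51 and 11.57 after PH, so the groups overlapped. Pck1, which controls gluconeogenesis, was at 10.26, 9.50 and 10.04 at 0 h and at 9.78, 9.77 and 10.15 after PH. In the list of glucose, glucocorticoid and cAMP response genes (24 of 27 measured), 4, 0 and 3 members were more than 1 above the control mean in replicates 1, 2 and 3. The shares of all probe sets were 1.03%, 0.209% and 0.225%.

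Where a gene had further probe sets they did not always follow. The difference was 0.28 for the second set of Egr1, 0.29 and 0.11 for those of Atf3, 0.56 for Lcn2, 1.70 for Saa2, 0.75 for Socs3 and 0.00 for Igfbp1, all without passing.

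In the other lists no member passed either. Members higher and lower at an unadjusted p under 0.05 were 3 and 0 of 31 cell cycle and p53 genes, 2 and 0 of 27 ribosome biogenesis genes and 0 and 0 of 17 clock genes. The same counts were 1 and 0 of 27 growth factor and receptor genes, 3 and 0 of 35 NF-kB, TNF and chemokine genes, 1 and 5 of 25 hepatocyte transcription factor and identity genes, and 0 and 1 of 16 bile acid and cholesterol genes. Over all probe sets the shares were 6.93% and 2.02%. Ccnd1, the cyclin that starts the cell cycle in regenerating hepatocytes, was at 7.05, 6.92 and 6.70 at 0 h and at 6.99, 7.01 and 7.16 after PH. Cdkn1a, the inhibitor p21, was at 8.20, 8.17 and 8.22 at 0 h and at 8.46, 8.06 and 8.03 after PH. Their differences, 0.16 ± 0.18 and -0.01 ± 0.11, were within the spread of the arrays.

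**Figure D4:**
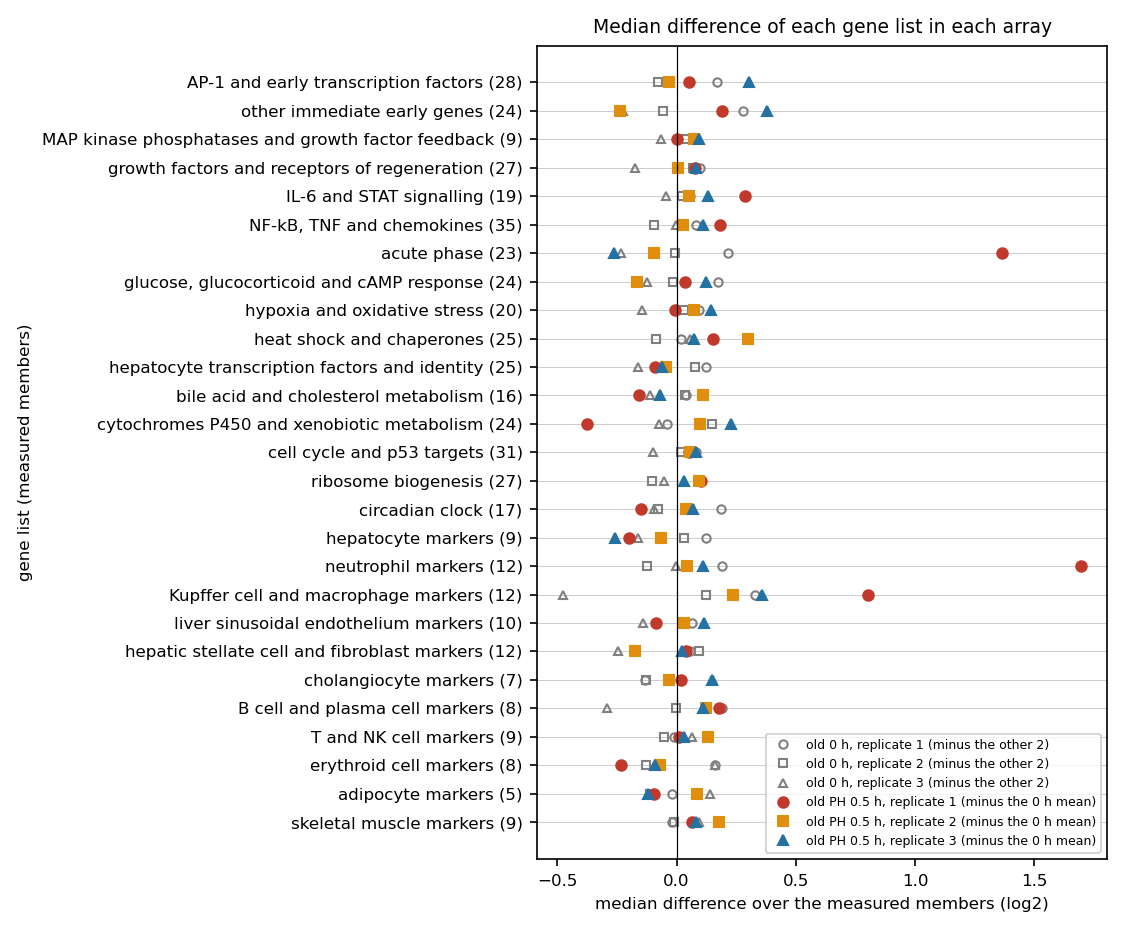
Median difference of the measured members of each gene list (horizontal axis, log2) in each array, as PH arrays minus the old 0 h mean (filled) and as 0 h arrays minus the mean of the other 2 (open grey); lists with fewer than 5 measured members are left out. The acute phase list lies at 1.36 in PH replicate 1 and below 0 in the other two, and the AP-1 list is highest, at 0.30, in PH replicate 3.

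A sham operation is meant to separate what anaesthesia and opening of the abdomen do from the loss of liver mass. Its 2 old arrays at 0.5 h gave other counts. In them the 3' actin control probe set was at 11.87 and 11.63, below every old 0 h and PH 0.5 h array, of which the lowest was at 12.14. The part of such array differences in the counts was not tested. Against the sham arrays, 1450 probe sets (11.7%) passed in the PH arrays, 745 higher and 705 lower. Against 0 h, 2021 (16.3%) passed in the sham arrays, 1264 higher and 757 lower, or 915 and 937 after each array was centred on its median. That count was 1017 without sham replicate 1, 592 without sham replicate 2 and 923 without 0 h replicate 2. Fitted on the PH and sham arrays alone, PH against sham gave 87 probe sets. It gave 751 without sham replicate 1 and 364 without sham replicate 2, where the lone sham array is assumed to vary like the other groups of the fit. Both sham arrays had some immediate early genes at high levels, with Fos at 9.55 and 8.55 and Egr1 at a mean of 9.96 ± 0.06 (SD, n = 2). Others were high mainly in sham replicate 1, with Atf3 at 8.258 and 6.535 and Dusp1 at 9.86 and 8.60 in sham replicates 1 and 2. Of the 28 AP-1 list members, 5 and 2 were more than 1 above the old 0 h mean and 0 and 0 more than 1 below it. Of the 24 other immediate early genes, 3 and 1 were so far above and 2 and 2 below. Over all 12422 probe sets, 91 and 74 were above and 81 and 76 below. Egr1 was lower in the PH than in the sham arrays by a difference of -2.02 ± 0.63 (adjusted p 0.0345), as was Igfbp1, by -1.89 ± 0.64 (0.0494). Igfbp1 was at 11.04 and 9.98 in the sham arrays and at 9.44, 6.30 and 10.12 after PH, so PH replicate 3 lay above sham replicate 2. PH replicate 3 alone was as high as the sham arrays in Egr1 and Fos, and Fos did not pass (-2.50 ± 1.03, adjusted p 0.103). The acute phase genes split the sham arrays too. Saa2 was at 12.74 and 8.17 and Lcn2 at 10.47 and 5.51 in sham replicates 1 and 2. There, 7 and 1 of the 23 list members were more than 1 above the old 0 h mean, against 91 and 74 of all 12422 probe sets. Phlda1 was at 6.42 and 6.66 in the sham arrays, below the PH arrays, and passed in sham against 0 h (-3.04 ± 0.56, adjusted p 0.000496). Highest in PH over sham among passing genes was Apob, the structural protein of very low density lipoproteins, at 11.01, 11.05 and 10.62 after PH and 9.21 and 9.65 after sham, but also at 10.53, 10.90 and 10.72 at 0 h.

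The difference between the old and the young change from 0 h to 0.5 h after PH passed for 1 probe set, or 0.00805%, Srsf5. With array weights the count was 82. In young mice Srsf5 was at 7.98, 8.15 and 8.06 at 0 h and at 8.97, 8.78 and 8.76 after PH, so it stood higher after PH, while in old mice it stood lower. The old change minus the young change was -1.52 ± 0.23 with an adjusted p of 0.00136, or 0.057 when only the 4 groups concerned were fitted. The 0 h arrays of the 2 ages themselves lay apart, with the old controls at 8.32 to 8.97 and the young at 7.98 to 8.15. At an unadjusted p under 0.05 there were 957 probe sets. In Fos the young arrays after PH were at 8.12, 7.48 and 9.49, against 4.35, 4.36 and 3.56 at 0 h, and in Egr1 at 9.56, 9.55 and 9.76 against 6.82, 7.31 and 6.70. All 3 young arrays thus stood above their controls in both genes, while old replicate 3 alone did, but the difference of the changes, -3.21 ± 1.30 for Fos and -2.91 ± 0.80 for Egr1, did not pass (adjusted p 0.565 and 0.429).

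The old arrays 1 h after PH are set beside those at 0.5 h; both are compared with the same 3 controls. At 1 h, 201 probe sets (1.62%) passed against 0 h, 150 higher and 51 lower. Fos was at 9.49, 7.76 and 9.36, Atf3 at 9.83, 9.15 and 10.28, and Jun at 8.36, 8.11 and 8.57. Saa2 was at 13.05, 12.86 and 13.56, Lcn2 at 10.95, 9.81 and 12.36, and Mt2 at 12.38, 11.89 and 13.47. In these 6 genes all 3 arrays at 1 h lay above all 3 controls. At 0.5 h Fos was above all controls in replicate 3 and Saa2 and Lcn2 in replicate 1, while Jun was above them in all 3 arrays. Myc was at 6.14, 5.64 and 5.78 at 1 h, above every array at 0 h and 0.5 h. Irgm2 was at 7.76, 8.34 and 8.25 and Cxcl9 at 4.80, 5.15 and 5.13, below PH replicate 2 at 0.5 h.

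**Figure D5:**
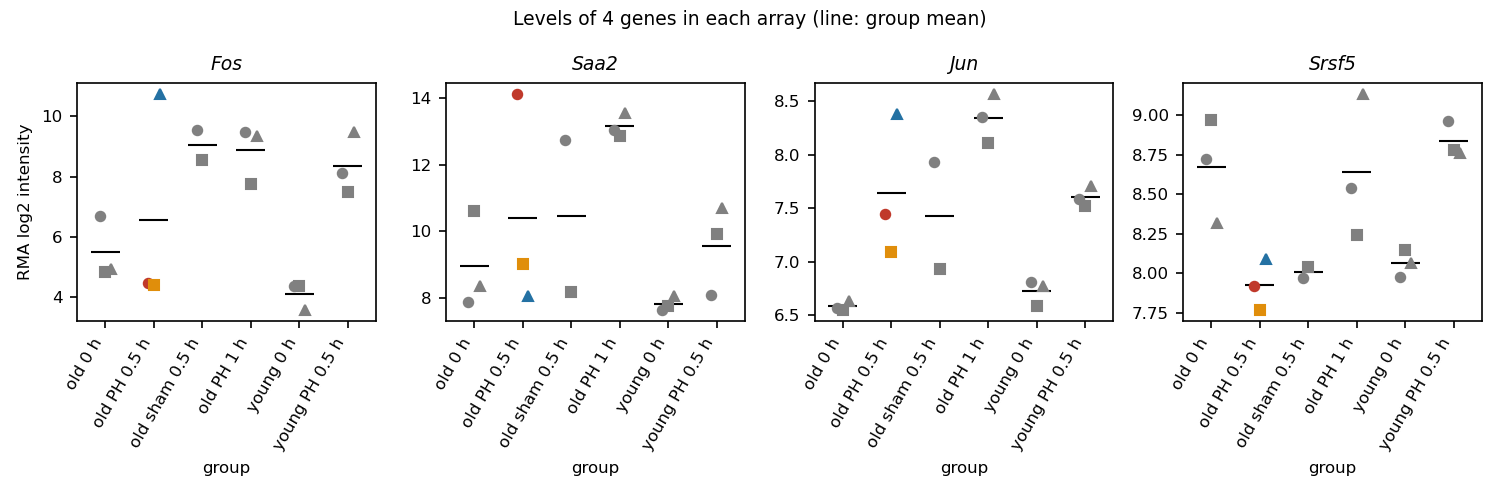
RMA log2 intensity (vertical axis, a separate scale for each gene) of Fos, Saa2, Jun and Srsf5 in each array of 6 groups; lines are group means and coloured points are the old PH 0.5 h arrays. Fos in PH replicate 3 (10.75) and Saa2 in PH replicate 1 (14.13) lie above the old 1 h arrays. In Fos and Saa2 the other old PH 0.5 h arrays lie within or below the range of the old 0 h arrays.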

How the data were processed

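Total RNA of whole liver was hybridised to Affymetrix arrays. Deposited log2 levels come from RMA, per the submitters' processing notes; which arrays were normalised together is not given in the sources used here. Of 12488 probe sets, 66 array controls were left out. In the supplied platform annotation, 10833 tested probe sets had 1 gene symbol, 396 several and 1193 none; the last 2 kinds are left unnamed. The model of 18 groups was fitted over all 46 arrays by limma (version 3.58.1, under R 4.3.3) with eBayes moderation, checked on simulated data, and errors are standard errors of the difference. Array values were compared by exact two-sided permutation (scipy 1.17.1). For arrays, their number limits the precision. The median SD between replicates was 0.141 in the PH group and 0.108 in the 0 h group, and no 2 arrays were alike (smallest median absolute difference 0.0858).

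The members, lists and tests were chosen with earlier results of these data known. Genes were named by rule: the 10 probe sets with the largest moderated t in each direction, the 5 highest and 5 lowest of each PH array against the other 2, up to 4 members of each list by size of difference, up to 5 passing probe sets per direction in the sham and age comparisons, and a set of early, acute phase and metabolic genes nameable throughout; others are said to be chosen after their values were seen. Where a gene has several probe sets, the brightest over all arrays stands for it unless the rule picked another. Promoter windows are from RefSeq. Alternatives were median centring, a filter on dim probe sets, trend and robust settings, fits of fewer groups, 1 probe set per gene, suffixed probe sets left out, array weights, a spike-in covariate, the replicate block and leaving out each array.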

Additional observations from a re-analysis of the deposited data

Results flagged for a closer look

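The change of Srsf5 from 0 h to 0.5 h after PH differed between the ages, with an old minus young difference of -1.52 that passed an interaction test over all probe sets (limma, adjusted p 0.00136). It stood lower after PH in 3 of 3 old arrays and higher in 3 of 3 young arrays, each against all 3 controls of its own age. The direction was the same in every alternative run, with values from -1.71 to -1.37, and the adjusted p was 0.057 when only the 4 groups concerned were fitted. Age and supplier of the mice cannot be told apart.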

How the results depend on the processing

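The count of 0 probe sets between PH and 0 h was 1 after median centring, 1 in a fit of the compared groups alone and 1 with the spike-in covariate, 0 with the replicate block and the other settings, and from 0 to 23 without single arrays. PH against sham, 1450, gave 87 in the compared groups alone and 703 in the old arrays alone, 1378 with the replicate block, and from 364 to 1451 without single arrays. Sham against 0 h, 2021, gave 1247 in the compared groups alone, 1148 in the old arrays alone and 1318 with 1 probe set per gene, and from 592 to 1688 without single arrays. The age difference, 1, gave 5 after median centring, 0 in the compared groups alone (adjusted p of Srsf5 0.057), 4 with 1 probe set per gene, 82 with array weights and 4 with the spike-in covariate, and from 1 to 11 without single arrays. At a threshold of 0.5, the probe sets apart from the control mean were 747, 567 and 356 in PH replicates 1, 2 and 3, against 163, 46 and 42 at 1; other references and centring stayed within 1.5 times. Same-numbered deviations of the 0 h and PH groups from their means correlated at 0.19, 0.03 and -0.09, and different-numbered ones at -0.27 to 0.25. Deviations within a group sum to 0, so these values cannot decide whether the replicate numbers pair the arrays. Of 50 genes followed through the alternatives, 40 kept their sign and 10 did not. Egr1 was 0.36 with array weights and from -1.39 to 0.51 without single arrays, and Ier2 was -0.27 with the spike-in covariate and from -0.86 to 1.05. Without single arrays the ranges were -1.04 to 2.13 for Fos, -0.060 to 0.94 for Nr4a1, -0.030 to 1.23 for Zfp36, -0.16 to 3.22 for Lcn2, -0.42 to 2.62 for Saa2, -0.65 to 2.04 for Orm2, -0.054 to 2.87 for Mt1 and -1.23 to 0.45 for Hsd3b5. The cause was not tested. Leaving out the dimmest 25% of probe sets also gave 0.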

Other observations

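Haemoglobin mRNA, which whole liver carries in blood, had low values after PH. Hba-a1 was at 13.04, 11.88 and 12.86 at 0 h and at 11.85, 10.95 and 11.80 after PH, so the PH arrays lay below the controls. Hbb-b2 was at 10.68, 9.37 and 10.34 at 0 h and at 9.56, 8.42 and 9.28 after PH, with overlap. Neither passed (adjusted p 0.498 and 0.558). Alas2, an enzyme of haem synthesis in red cells, was at 9.50, 9.92 and 10.15 at 0 h and at 9.55, 9.62 and 9.86 after PH.

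Of 79 immunoglobulin probe sets, chosen after their values were seen, 6 were more than 1 above the old 0 h mean in PH replicate 1, where 1.03% of all probe sets were, and 0 in replicates 2 and 3. Igha was at 6.75, 6.28 and 6.40 at 0 h and at 10.22, 6.88 and 6.55 after PH. Of 16 Ighm probe sets, 1 was so raised in replicate 1. Catalase (Cat), which breaks down hydrogen peroxide, was at 10.64, 11.05 and 10.86 at 0 h and at 10.25, 10.49 and 10.24 after PH, with no overlap and an adjusted p of 0.275.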
